A study of Mus musculus with 12 samples.

Results

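The 39 genes described here encode the aminoacyl-tRNA synthetases of the mouse and the scaffold proteins of their complex, and were chosen by symbol from the 23420 genes of the deposited count table. Of these, 20 encode cytosolic enzymes or subunits, 16 encode mitochondrial enzymes (symbols ending in 2) and 3 are scaffold genes (Aimp1, Aimp2 and Eef1e1). After a filter on low counts, 36 of the 39 were among the 9742 genes tested, and 3 mitochondrial genes (Ears2, Nars2 and Pars2) were too low to test. RNA was sequenced from monocytic myeloid-derived suppressor cells (M-MDSCs, immature monocyte-like cells) of 6 aged mice (24 months) and 6 young mice (6 months), all male C57BL/6JNIA, untreated and without an engineered allele in the labels, with 1 library per mouse. The sort took the CD11b+Ly6G-Ly6Chi cells of the marrow, and the labels give the tibia as the tissue. In bulk samples of this kind, fewer cells of a type and less RNA per cell cannot be told apart.

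A synthetase joins an amino acid to its tRNA, and the charged tRNA then carries that amino acid to the ribosome. Ribosomes of the cytosol and of the mitochondrion use separate tRNAs, and for most amino acids the nuclear genome holds a gene for each compartment. Gars and Kars are exceptions, since each makes both the cytosolic and the mitochondrial enzyme, while Eprs joins the glutamate and proline enzymes in a single protein. Several cytosolic enzymes bind to Aimp1, Aimp2 and Eef1e1 in a multi-synthetase complex. When amino acids run short, uncharged tRNA activates the kinase GCN2 (Eif2ak4), translation of the transcription factor ATF4 increases, and ATF4 with C/EBP partners binds C/EBP-ATF elements in many genes of amino acid supply, synthetase genes among them.

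Between 8737941 and 16300374 fragments were counted per aged mouse and between 4613239 and 9079237 per young mouse. Cd38, the gene named in the study's title, was measured at 29.7 ± 5.80 CPM (counts scaled to the normalized library total; SD, n = 6) in aged and 4.09 ± 0.792 CPM in young mice. The summed level of 12 monocyte markers was 12870 to 18152 CPM in aged and 15391 to 20255 CPM in young mice, and all 12 passed the filter on low counts, 3 of them higher and 1 lower in aged mice. The 14 genes of a neutrophil list were far more abundant in this Ly6G-negative sort, at 131100 to 154114 CPM in aged and 83046 to 129640 CPM in young mice, and 8 of the 13 tested were higher in aged mice. All 11 tested resident macrophage genes were higher in aged mice (667 to 1843 against 426 to 600 CPM), while 1 of 11 B cell genes and none of 10 erythroid genes in the table passed the filter. Of 7 tested dendritic cell genes 3 were higher and 1 lower, and the summed list ran from 74.4 to 1060 CPM (median 170.0) in aged and from 79.2 to 111 CPM in young mice. Of 3 tested plasma cell genes 1 was higher (134 to 248 against 110 to 163 CPM), and none of 2 tested T and NK cell genes or 4 tested stem and progenitor genes was called. Beside these counts, 22.4% of all genes tested were called higher and 23.0% lower in aged mice. The marker lists were counted in all 12 mice only, with young mice 5 and 6 included. The young libraries numbered 5 and 6 stood apart, with Rpph1 (the RNA of RNase P) at 209 and 103 CPM against 2307 to 6688 CPM in the other 10 libraries, the lowest neutrophil sums (83046 and 84089 CPM) and the highest cell cycle sums (1676 and 1666 CPM). The young libraries resembled each other in pairs (1 with 2, 9 with 10 and 5 with 6, at a chi-square per gene of 1.72, 2.65 and 4.14). Among aged libraries the smallest was 5.42. Each young pair differed by more than sampling noise, which does not show that its libraries are independent. All 12 were counted as separate mice, and every p-value below rests on this. The part of these differences between libraries in the results below was not tested, and each call of a member below is also given without young mice 5 and 6.

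Levels of the synthetase genes were read per length, as CPM per kilobase of the authors' exon length. Lars2, the mitochondrial leucine enzyme, was the most abundant of the 39 in aged mice with a mean of 71.2 CPM per kilobase (40.7 to 90.1 over 6 mice), and had a mean of 35.0 (22.8 to 48.7) in young mice. Dars, the cytosolic aspartate enzyme, followed at 59.9 ± 4.56 (SD, n = 6) in aged and was the most abundant in young mice at 48.0 ± 6.87 CPM per kilobase. These 2 genes stood well above Gars, the glycine enzyme, at 19.1 ± 1.88 in aged and 14.1 ± 1.54 in young mice. Apart from Lars2 and Iars2, the mitochondrial genes lay at or below 3.38 in aged and 3.55 in young mice. Ears2, the mitochondrial glutamate enzyme, had 0 to 3 counts per mouse, no count in 7 of the 12 mice, and a mean of 0.0661 CPM per kilobase in aged and 0.0313 in young mice. A count of 0 allows up to 0.188 to 0.350 CPM in an aged library and up to 0.306 to 0.643 CPM in a young one. The least abundant cytosolic genes were Iars, the isoleucine enzyme, at 1.24 ± 0.256 in aged mice, and Tars, the threonine enzyme, at 1.21 ± 0.228 CPM per kilobase in young mice. Of the scaffold genes, Aimp1 was highest (7.08 ± 0.922 in aged and 5.80 ± 1.16 in young mice) and Eef1e1 lowest (1.48 ± 0.174 and 1.05 ± 0.270 CPM per kilobase).

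The first question was whether cytosolic and mitochondrial synthetase genes differed between the ages. By the quasi-likelihood test of edgeR, adjusted over all genes tested, 45.4% of all genes were called at an adjusted p under 0.05, 22.4% higher and 23.0% lower in aged mice. Against this background, 7 of the 20 cytosolic genes were called higher and 3 lower, which is a share of calls near that of all genes. Of the 13 tested mitochondrial genes, 2 were called higher and 1 lower, and of the 3 scaffold genes 1 was called higher. On plain library totals, without the scaling by TMM factors, 3 cytosolic genes were called higher (Dars, Gars and Qars) and 3 lower, and 1 mitochondrial gene higher and 2 lower, beside 17.3% higher and 28.4% lower of all genes. The median log2 fold change (aged over young) was 0.15 for the cytosolic, -0.12 for the mitochondrial and 0.48 for the scaffold genes, beside 0.01 for all genes tested. The medians were not stable. The cytosolic median was 0.085 without aged mouse 1. The mitochondrial median ran from -0.19 (without aged mouse 2) to -0.057 (without aged mouse 5). It also moved by over 1.5 times without young mouse 2 or 6. With both young mice 5 and 6 left out these 2 medians were 0.15 and -0.049, and without TMM factors 0.07 and -0.20. With a correction for gene length, Aimp1 was at -0.013 and Aimp2 at 0.17, so that the scaffold median was at most 0.17. The log2 fold change was above 0 for 13 of 20 cytosolic and for 4 of 13 mitochondrial genes. Values of the ages did not overlap, with aged mice higher, for Aars, Qars, Iars2 and Aimp2, 4 of the 36 tested, beside 9.68% of all genes. None of the 36 was lower without overlap, beside 12.1% of all genes. These counts depend on the scaling (TMM factors): on plain library totals the ages overlapped for all 4 of these genes, 0 of the 36 were higher without overlap (7.58% of all genes) and 1, Fars2, was lower (14.8%). Without young mice 5 and 6, the calls were 2 higher (Gars and Qars) and 1 lower (Cars) among cytosolic, 1 higher (Lars2) and 1 lower (Tars2) among mitochondrial genes, and Aimp2 among scaffold genes. In that smaller comparison 14.1% of all genes were called higher and 17.9% lower.

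**Figure D1:**
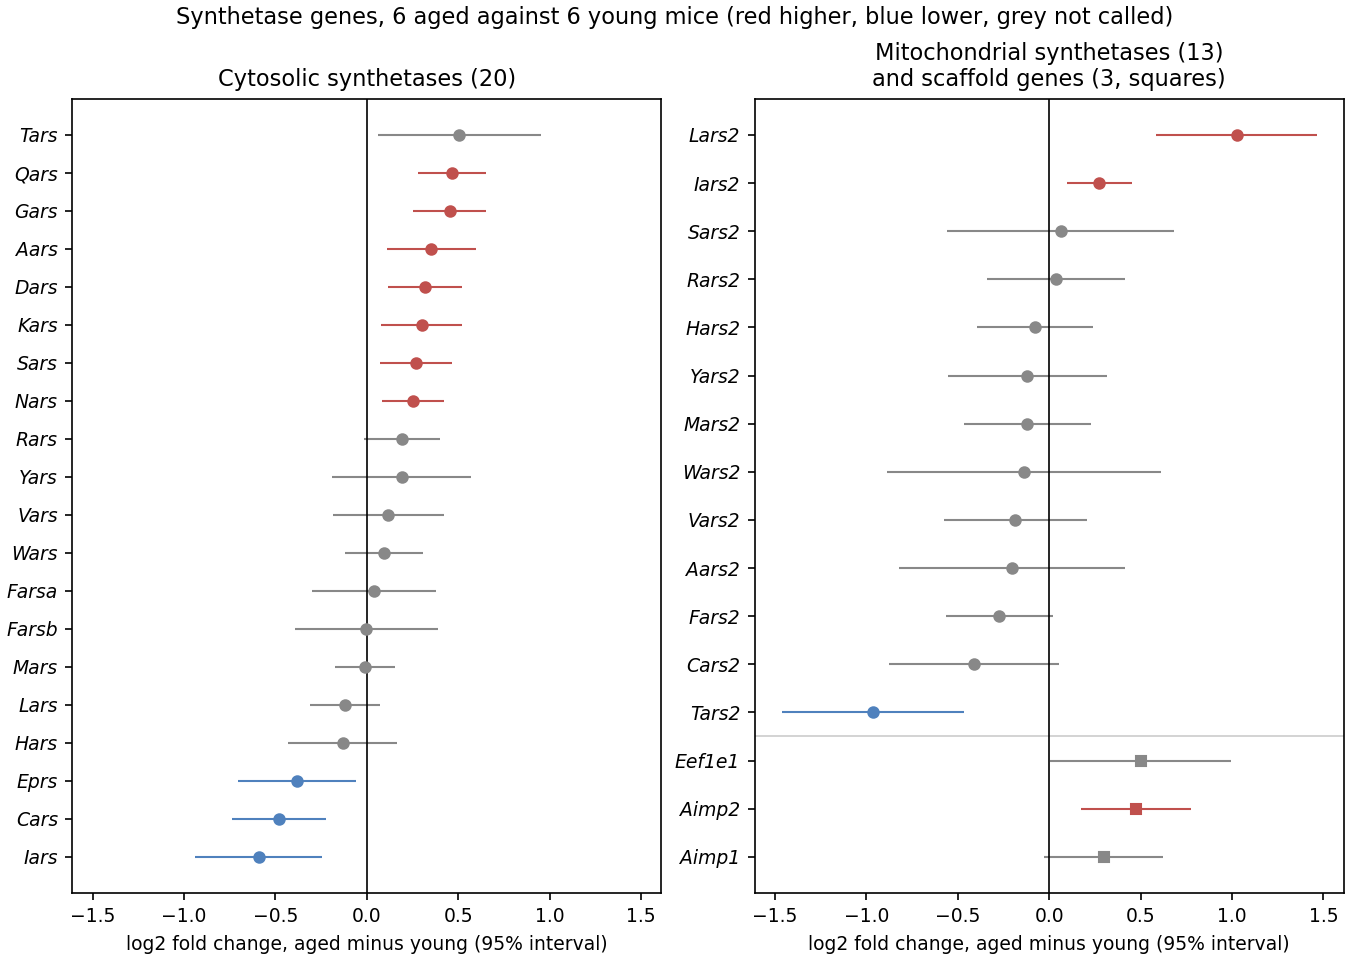
Log2 fold change of each tested gene (x axis, aged minus young, with its 95% interval) for 20 cytosolic genes on the left and 13 mitochondrial and 3 scaffold genes on the right, from 6 mice per age. Red genes were called higher and blue genes lower in aged mice, and called changes ran from -0.97 (Tars2) to 1.03 (Lars2).

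Among the cytosolic enzymes called higher, Qars, which charges tRNA with glutamine, differed most. The gene lies at chr9:108508005-108515941 of mm10 (plus strand, 24 exons). It was measured at 44.9, 46.9, 47.4, 51.7, 55.2 and 55.5 CPM in the aged and at 31.7, 33.0, 36.6, 38.8, 39.1 and 39.4 CPM in the young mice. Every aged mouse lay above every young mouse on this scale. The log2 fold change was 0.47 (SE 0.0825, adjusted p = 0.000542, edgeR), and 0.48 (adjusted p = 0.00170) without young mice 5 and 6. Gars ranged from 38.0 to 50.6 CPM (median 46.9) in aged and from 29.1 to 39.9 CPM (median 33.7) in young mice. A single young mouse (number 2, 39.9 CPM) lay above the lowest aged mouse. The change was 0.45 (SE 0.0896, adjusted p = 0.00111), and 0.36 (adjusted p = 0.00928) without young mice 5 and 6.

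Aars, the alanine enzyme, did not overlap either, with 15.8 to 23.4 CPM (median 17.4) in aged and 13.9 to 15.7 CPM (median 14.4) in young mice. The gap between the ages was narrow, and aged mice 1 and 7 (21.6 and 23.4 CPM) lay apart from the other 4 aged mice. Its log2 fold change was 0.35 (SE 0.109, adjusted p = 0.0163), and 0.34 (adjusted p = 0.0657) without young mice 5 and 6. Dars ranged from 132 to 163 CPM in aged and from 98.4 to 140 CPM in young mice, and young mice 5 and 6 were its lowest. Its change of 0.32 (SE 0.0909, adjusted p = 0.0104) became 0.19 (adjusted p = 0.0660) without these 2 mice. The aspartate, alanine and glycine enzymes belong to class II, built on another catalytic fold than the class I enzymes.

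Nars (asparagine), Kars (lysine) and Sars (serine) were also class II genes called higher, with smaller changes. Nars stood at 40.3 ± 3.72 CPM in aged and 33.7 ± 1.72 CPM in young mice (log2 fold change 0.25, adjusted p = 0.0133). Kars, at 21.6 ± 2.43 against 17.5 ± 1.90 CPM, changed by 0.30 (adjusted p = 0.0221). Sars, at 28.4 ± 2.86 against 23.5 ± 2.06 CPM, changed by 0.27 (adjusted p = 0.0224). The ages overlapped for all 3 genes, and the adjusted p was 0.0671, 0.102 and 0.133 without young mice 5 and 6. By class, 6 of 10 cytosolic class II genes and 1 of 9 class I genes (Qars) were called higher, and 2 of the class I genes were called lower, beside 22.4% and 23.0% of all genes. Without young mice 5 and 6, 1 gene of each class was called higher (Gars and Qars), and without TMM factors 2 of class II and 1 of class I. This split by class is a count of genes and carries no test.

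A total of 3 of the cytosolic genes were called lower. Cars, the cysteine enzyme (chr7:143557230-143600090 of mm10, minus strand, 23 exons), ranged from 14.3 to 17.6 CPM (median 15.2) in aged and from 17.3 to 26.3 CPM (median 21.4) in young mice. The overlap came from 1 aged mouse (17.6 CPM) and the 2 lowest young mice (17.3 and 17.6 CPM), while young mice 5 and 6 were highest (26.3 and 25.9 CPM). The log2 fold change was -0.48 (SE 0.115, adjusted p = 0.00376), and -0.34 (adjusted p = 0.0242) without young mice 5 and 6. Iars ranged from 4.16 to 7.14 CPM (median 5.27) in aged and from 6.64 to 9.55 CPM (median 8.23) in young mice, with young mice 5 and 6 again highest. Its change was -0.59 (SE 0.155, adjusted p = 0.00657), the lowest of the cytosolic genes, and -0.48 (adjusted p = 0.0530) without those mice. Eprs ranged from 9.20 to 16.5 CPM in aged and from 13.1 to 18.9 CPM in young mice. The ages overlapped widely, and its change of -0.38 (SE 0.145) passed narrowly (adjusted p = 0.0424), and was -0.28 (adjusted p = 0.201) without young mice 5 and 6. Across the 9742 genes, log2 fold change was lower in longer genes (Spearman's rho -0.48, a description over genes that share the libraries). With a correction for gene length, Eprs was at -0.20 (adjusted p = 0.258) and Kars at 0.22 (adjusted p = 0.0922).

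**Figure D2:**
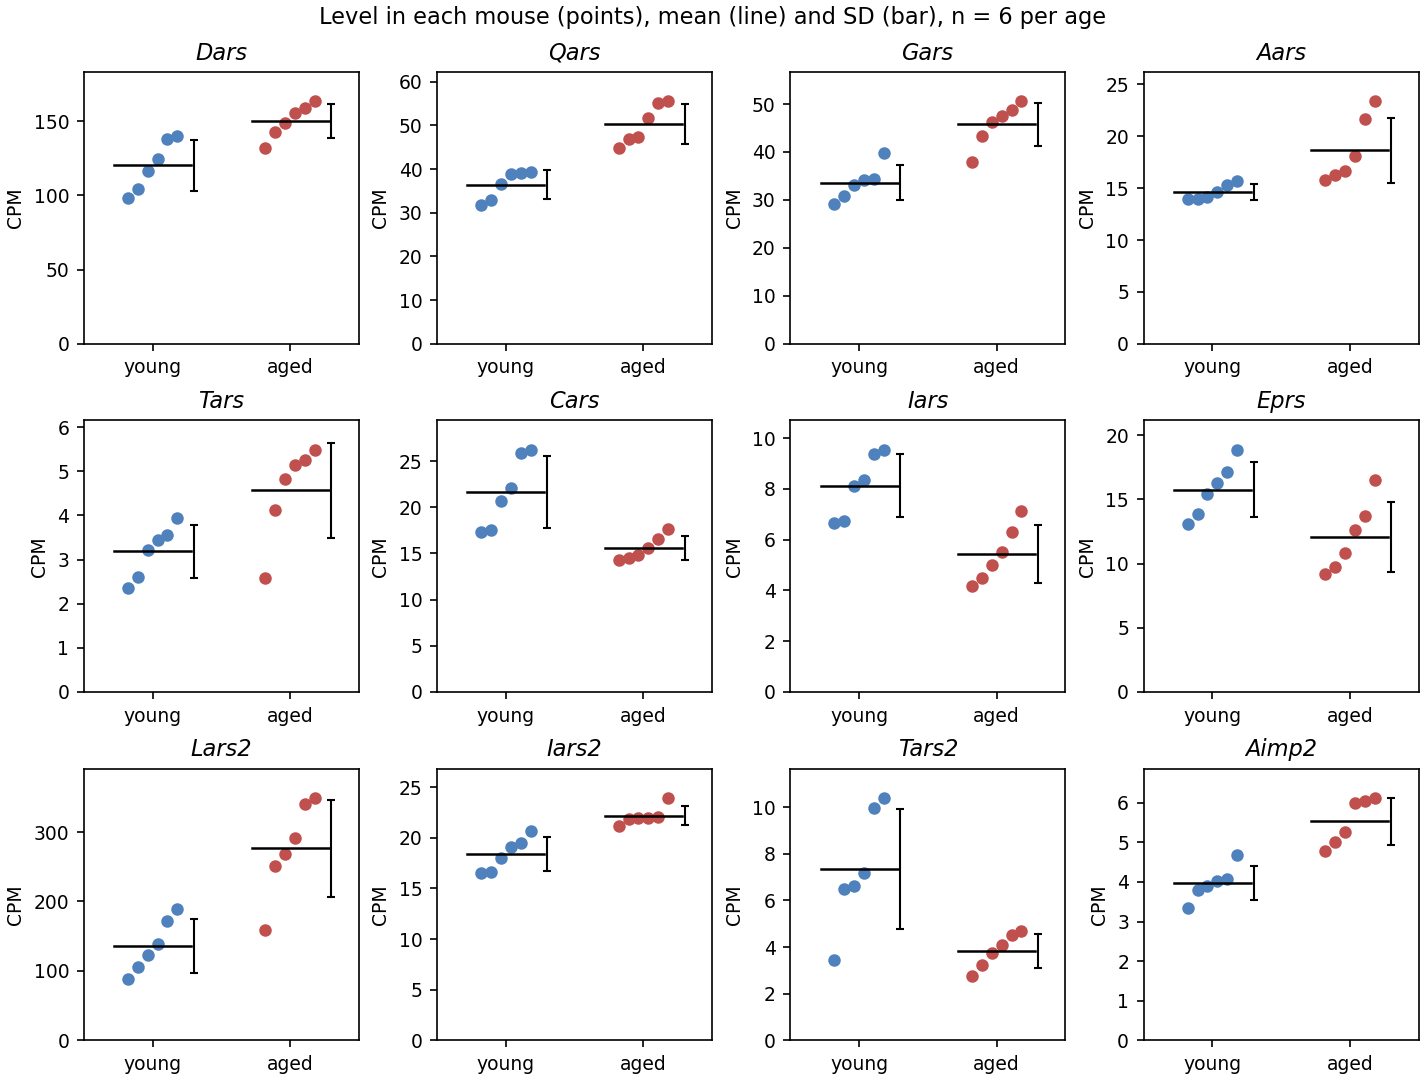
CPM (y axis, from 0) of 12 genes in 6 young (blue) and 6 aged (red) mice, with points ordered by value, the mean as a line and the SD as a bar. Qars, Aars, Iars2 and Aimp2 did not overlap between the ages, and Lars2 and Tars2 had the largest fold changes between means of the 12.

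The other 10 cytosolic genes did not pass the test. Tars had the highest log2 fold change of the cytosolic group, 0.51, but missed the threshold (SE 0.200, adjusted p = 0.0502). Its values ran from 2.59 to 5.49 CPM (median 4.97) in aged and from 2.34 to 3.93 CPM (median 3.32) in young mice, with aged mouse 5 alone among the young values. Without aged mouse 5 its change was 0.63 (adjusted p = 0.00909), and it was also called without young mouse 9 and with upper quartile scaling (adjusted p = 0.0378), a minimum of 10 counts (0.0395) and a correction for GC content (0.0335). Rars (arginine) was at 0.19 (adjusted p = 0.105), Yars (tyrosine) at 0.19, Vars (valine) at 0.12 and Wars (tryptophan) at 0.10. Farsa and Farsb, the 2 subunits of the phenylalanine enzyme, were at 0.04 and -0.0017, with adjusted p-values of 0.851 and 0.994. Mars (methionine) was at -0.0082 with a 95% interval of -0.17 to 0.16. Lars (leucine) was at -0.12 and Hars (histidine) at -0.13.

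Membership of the multi-synthetase complex did not go with 1 direction. Of 8 complex-bound cytosolic genes, 3 were called higher (Dars, Kars and Qars) and 2 lower (Eprs and Iars), and of the 12 others 4 were called higher and 1 lower, beside 22.4% and 23.0% of all genes. Qars alone of the 8 was called without young mice 5 and 6. Of the scaffold genes, Aimp2, which holds the complex together, was at 4.78 to 6.13 CPM (median 5.63) in aged and 3.35 to 4.69 CPM (median 3.97) in young mice. The ages did not overlap, and the log2 fold change was 0.48 (SE 0.136, adjusted p = 0.0106) and 0.51 (adjusted p = 0.0240) without young mice 5 and 6. With the correction for gene length, Aimp2, at 1185 bases one of the shorter members, was at 0.17 (adjusted p = 0.378). Eef1e1 (0.50, adjusted p = 0.0849) and Aimp1 (0.30, adjusted p = 0.106) were not called.

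Among the mitochondrial enzymes, Lars2 (chr9:123366940-123462664 of mm10, plus strand, 21 exons) changed most. It was measured at 158, 252, 268, 291, 340 and 350 CPM in the aged and at 88.5, 105, 123, 138, 172 and 189 CPM in the young mice. The overlap came from aged mouse 7 alone, the deepest library. The log2 fold change was 1.03 (SE 0.197, adjusted p = 0.000937), and 0.81 (adjusted p = 0.00514) without young mice 5 and 6. Lars2 was also among the members that varied most within an age, with a coefficient of variation of 25.2% in aged and 28.5% in young mice. Rn45s, the row of the 45S pre-ribosomal RNA, moved in the same direction, from 11503 to 18105 CPM in young to 18032 to 26251 CPM in aged mice, a mean of 1.45% and 2.15% of all fragments (log2 fold change 0.65, adjusted p = 0.00152). Aged mouse 7, lowest in Lars2 among the aged, had 23100 CPM of Rn45s, above 3 of the other aged mice. Aged mouse 4 was the highest of the aged in both (350 and 26251 CPM), young mouse 1 the highest of the young in both (189 and 18105 CPM) and young mouse 5 the lowest in both (88.5 and 11503 CPM). Whether ribosomal RNA fragments were counted on Lars2 was not tested.

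Iars2, the mitochondrial isoleucine enzyme, was at 21.2 to 24.0 CPM (median 22.0) in aged and 16.5 to 20.7 CPM (median 18.5) in young mice, with no overlap. Its log2 fold change was 0.28 (SE 0.0802, adjusted p = 0.0118), and 0.18 (adjusted p = 0.103) without young mice 5 and 6, which were its lowest. Tars2, the mitochondrial threonine enzyme (chr3:95739974-95754977 of mm10, minus strand, 18 exons), went the other way. It was measured at 2.77, 3.21, 3.73, 4.07, 4.51 and 4.68 CPM in the aged and at 3.43, 6.51, 6.64, 7.17, 9.98 and 10.4 CPM in the young mice. Young mouse 2 (3.43 CPM) lay within the aged values and the other 5 young mice lay above all of them. The log2 fold change was -0.97 (SE 0.223, adjusted p = 0.00304), and -0.67 (adjusted p = 0.0328) without young mice 5 and 6, the 2 highest.

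The remaining 10 tested mitochondrial genes were not called. Cars2 was at -0.41 (adjusted p = 0.120) and Fars2 at -0.27 (adjusted p = 0.105), and Fars2 was called lower (-0.36, adjusted p = 0.0463) with the correction for gene length. Aars2 was at -0.20, Vars2 at -0.18, Wars2 at -0.14, Mars2 at -0.12, Yars2 at -0.12 and Hars2 at -0.08, with adjusted p-values from 0.406 to 0.761. Rars2 was at 0.04 and Sars2 at 0.06. Several of these rested on few fragments, with 4 to 23 counts per mouse for Wars2 and 5 to 27 for Sars2, so that changes of moderate size were not detectable (95% interval of Wars2 -0.89 to 0.61). Of the genes too low to test, Nars2 had 2 to 13 and Pars2 2 to 15 counts per mouse.

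Summed over genes, the 20 cytosolic genes reached 535 to 603 CPM in aged and 481 to 521 CPM in young mice without overlap, and Dars made up the largest part. As a share of all counts, without TMM factors, the ages overlapped (0.0491% to 0.0616% in aged and 0.0489% to 0.0529% in young mice). The 16 mitochondrial genes summed to 222 to 414 CPM in aged and 163 to 255 CPM in young mice. Most of this was Lars2. Without it, the other 15 summed to 60.2 to 69.9 CPM (65.7 ± 3.72, SD, n = 6) in aged and 64.3 to 74.7 CPM (69.0 ± 4.71) in young mice, and the ages overlapped. The ratio of the cytosolic to the mitochondrial sum was 1.73 ± 0.457 in aged and 2.49 ± 0.389 in young mice. Without Lars2 the order turned round, to a mean of 8.61 (8.25 to 8.89) in aged and 7.25 (6.44 to 7.92) in young mice. These sums weigh abundant genes most and carry no test.

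**Figure D3:**
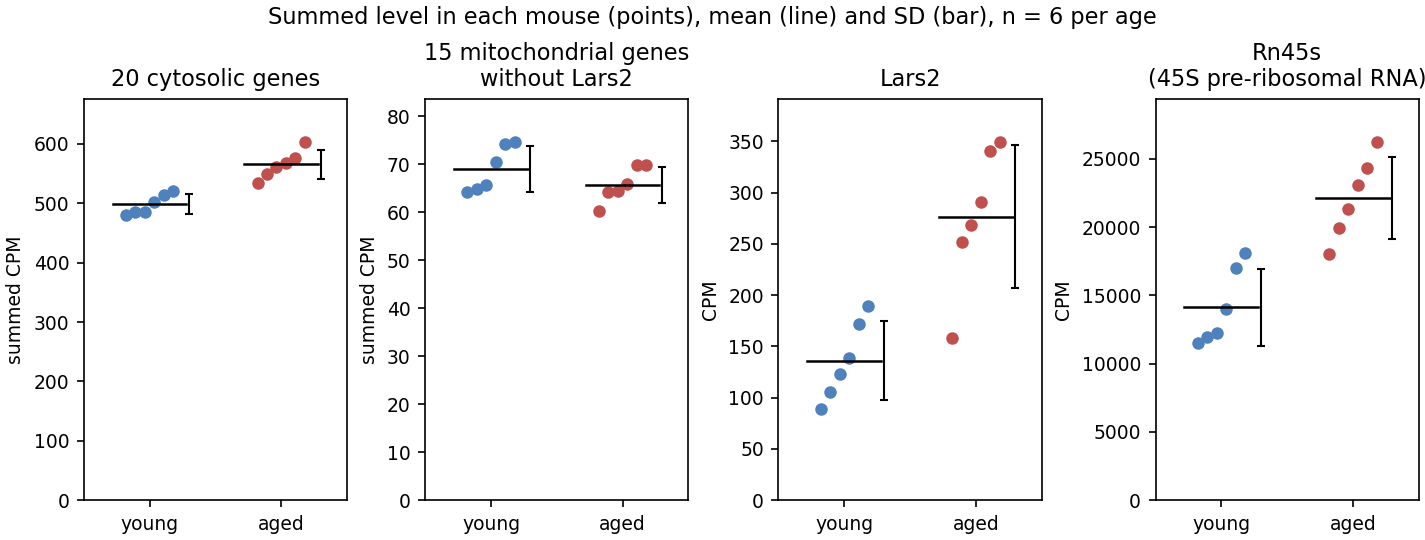
Summed CPM of the 20 cytosolic genes and of the 15 mitochondrial genes without Lars2, and CPM of Lars2 and of Rn45s (y axes, from 0), in 6 young (blue) and 6 aged (red) mice with the mean as a line and the SD as a bar. The cytosolic sums did not overlap (535 to 603 against 481 to 521 CPM), while the mitochondrial sums without Lars2 did. Without TMM factors the cytosolic sums overlapped too.

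The second comparison set the cytosolic gene against the mitochondrial gene of the same amino acid within each mouse. For 12 of 13 amino acids set up as pairs both genes were tested, and the log2 ratio of their CPM was compared between the ages by an exact two-sided permutation test over mice, with adjustment over the 12 pairs (the smallest p that 6 against 6 mice can give is 0.00216). The ratio differed for 3 pairs. For isoleucine, Iars against Iars2 was at -2.34 to -1.72 in aged and -1.61 to -0.78 in young mice, with no overlap (difference -0.84, exact p = 0.00216, adjusted p = 0.0260). For leucine, Lars against Lars2 was at -3.15 to -1.66 in aged and -1.79 to -0.92 in young mice (difference -1.15, exact p = 0.00649, adjusted p = 0.0260). For threonine, Tars against Tars2 moved the other way, from -1.91 to -0.09 in young to -0.17 to 0.55 in aged mice (difference 1.32, exact p = 0.00649, adjusted p = 0.0260). Without young mice 5 and 6 the differences were -0.65, -1.01 and 1.03, with exact p-values of 0.00952, 0.0238 and 0.0143 and adjusted p-values of 0.0857, 0.0952 and 0.0857. The smallest p that 6 against 4 mice can give is 0.00476, so that 1 pair alone at that bound would reach an adjusted p of 0.0571, and these missed thresholds say little about the dependence on those mice.

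The pairs that differed were made up in different ways. In isoleucine the cytosolic gene was called lower and the mitochondrial gene higher. In leucine the mitochondrial gene alone was called, and in threonine the mitochondrial gene was called lower while the cytosolic gene missed the threshold. Per kilobase, Tars was below Tars2 in young mice (1.21 ± 0.228 against 1.66 ± 0.578, n = 6) and above it in aged mice (1.73 ± 0.409 against 0.862 ± 0.167, n = 6). The order reversed in that Tars was the higher of the pair in 6 of 6 aged and 1 of 6 young mice. Lars2 was above Lars, and Iars2 above Iars, in all 12 mice. Phenylalanine, with 2 cytosolic subunit genes, and glutamate and proline, joined in Eprs, were not set up as pairs. For 8 of the 13 amino acids that were, asparagine included, the cytosolic gene was the higher per kilobase in all 12 mice, from 2.07-fold (Cars over Cars2) to 80.6-fold (Nars over Nars2) in aged mice. The histidine and tyrosine pairs lay close together, at 3.68 against 3.38 (Hars and Hars2) and 2.10 against 2.41 CPM per kilobase (Yars and Yars2) in aged mice.

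The other 9 pairs did not differ after adjustment, with differences between -0.13 (cysteine) and 0.44 (alanine). The cysteine pair had both genes below 0 in log2 fold change, Cars at -0.48 and Cars2 at -0.41, and its ratio was 1.81 ± 0.292 in aged and 1.94 ± 0.330 in young mice (exact p = 0.478, n = 6 per age). The valine pair had the smallest p of the 9 (difference 0.26, exact p = 0.0952, adjusted p = 0.281).

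**Figure D4:**
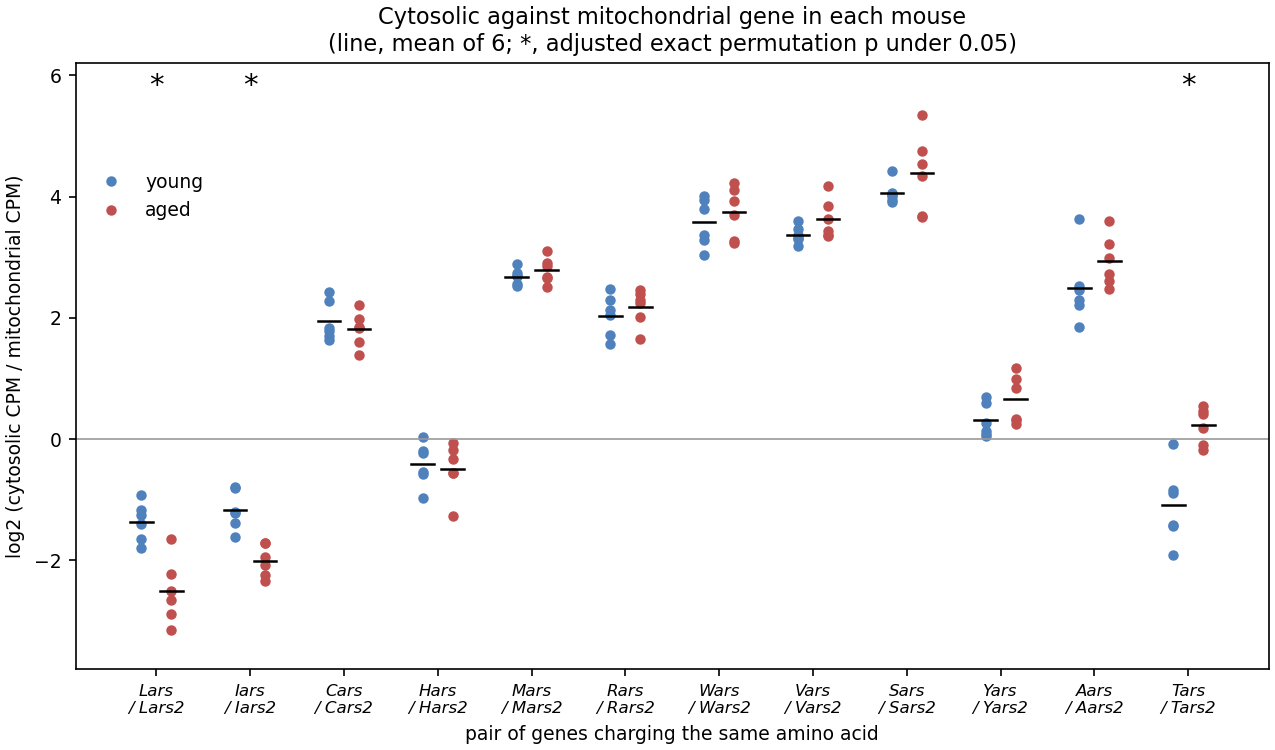
Log2 ratio of cytosolic to mitochondrial CPM (y axis) in each of 6 young (blue) and 6 aged (red) mice for 12 pairs (x axis), with the mean as a line and a star where the adjusted exact permutation p was under 0.05. The leucine and isoleucine ratios were lower and the threonine ratio higher in aged mice.

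Because ATF4 acts on synthetase genes through C/EBP-ATF elements, promoters of the members were read from RefSeq (GRCm38.p6; 250 bases before to 50 after the gene start). A promoter was found for 30 of the 39 members, 32 promoters in all. The element was searched as TGATGNAA on both strands and was present in 5 of the 32, beside 3.97% of 32851 promoters of all genes. All 5 belong to cytosolic enzymes. They are shown because 2 of these genes were called higher (Aars and Gars), 1 lower (Iars) and 2 not called (Tars and Yars). Of all genes, 22.4% were called higher and 23.0% lower. Without young mice 5 and 6, Gars alone of the 5 was called, beside 14.1% higher and 17.9% lower of all genes. The starts of Aars and Yars in RefSeq differ from those in the annotation of the count table. Capitals mark the element on either strand.
Aars, chr8:111033592-111033891, plus strand: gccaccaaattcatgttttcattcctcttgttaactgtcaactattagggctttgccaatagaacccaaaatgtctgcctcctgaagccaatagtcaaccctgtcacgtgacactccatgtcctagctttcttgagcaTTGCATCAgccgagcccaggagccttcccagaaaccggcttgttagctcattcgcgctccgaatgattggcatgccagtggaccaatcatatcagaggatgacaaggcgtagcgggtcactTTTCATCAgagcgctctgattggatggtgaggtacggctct
Gars, chr6:55037751-55038050, plus strand: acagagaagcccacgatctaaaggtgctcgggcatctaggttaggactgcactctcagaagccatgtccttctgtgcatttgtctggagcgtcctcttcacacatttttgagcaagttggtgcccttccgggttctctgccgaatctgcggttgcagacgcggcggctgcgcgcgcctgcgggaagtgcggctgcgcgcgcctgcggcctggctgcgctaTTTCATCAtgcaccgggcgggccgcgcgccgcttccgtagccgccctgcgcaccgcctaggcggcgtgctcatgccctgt
Iars, chr13:49681880-49682179, plus strand: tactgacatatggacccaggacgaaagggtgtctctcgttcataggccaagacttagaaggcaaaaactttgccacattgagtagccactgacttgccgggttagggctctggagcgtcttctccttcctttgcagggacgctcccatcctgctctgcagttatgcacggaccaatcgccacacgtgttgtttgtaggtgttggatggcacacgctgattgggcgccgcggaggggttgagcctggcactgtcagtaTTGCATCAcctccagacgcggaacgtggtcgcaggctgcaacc
Tars, chr15:11399609-11399908, minus strand: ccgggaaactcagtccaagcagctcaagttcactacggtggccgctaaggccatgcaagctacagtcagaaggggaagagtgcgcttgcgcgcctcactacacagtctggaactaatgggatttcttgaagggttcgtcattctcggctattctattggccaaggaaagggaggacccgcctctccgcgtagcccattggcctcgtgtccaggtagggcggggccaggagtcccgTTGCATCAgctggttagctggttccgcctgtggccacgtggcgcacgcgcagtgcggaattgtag
Yars, chr4:129189653-129189952, plus strand: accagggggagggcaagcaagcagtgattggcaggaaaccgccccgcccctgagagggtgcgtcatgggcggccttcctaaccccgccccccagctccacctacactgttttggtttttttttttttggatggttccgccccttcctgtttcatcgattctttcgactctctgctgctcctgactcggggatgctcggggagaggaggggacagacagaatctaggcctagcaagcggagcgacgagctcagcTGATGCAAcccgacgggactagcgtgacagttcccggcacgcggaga

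In Aars the element occurs at 112 bases before and again at base 10 after the start, in Gars and Tars it lies 30 and 15 bases before, and in Iars and Yars it begins at bases 8 and 4 after the start. CACGTG (E-box), bound by Myc and related factors, was present in 5 promoters (Aars, Ears2, Farsb, Iars and Tars), beside 7.15% of all promoters. CCAAT (bound by NF-Y) was in 16, beside 37.4%. TTCNNNGAA (GAS, bound by STAT factors) was in 4 (Aars, Eef1e1, Kars and Nars2), beside 8.30%, and the interferon-stimulated response element (ISRE) was in 1, that of Qars, beside 3.44%. Genes that hold the C/EBP-ATF element ran from a log2 fold change of -0.59 to 0.51, in both directions. A match is a description of these letters only.

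Some members share a start region with another gene in the opposite direction. In the annotation of the count table, a divergent start within 1000 bases was found for 11 of the 39. Hars and Hars2, the histidine enzymes of the 2 compartments, start 75 bases apart, and neither was called (log2 fold change -0.13 and -0.08). Aimp2, called higher, starts 162 bases from the mismatch repair gene Pms2, which was at 0.03 (adjusted p = 0.900). Kars starts 54 bases from Terf2ip, a telomere protein gene, which was at 0.23 (adjusted p = 0.0764). On the same strand, 532 exon bases of Aars are shared with Exosc6, and fragments there could not be given to either gene alone.

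The third comparison placed the members beside other genes of the same biology. In the list of 24 tested amino acid response genes, 6 were called higher and 6 lower, a share of 22.4% and 23.0% among all genes having been called in each direction, and the median was 0.07. Atf4 itself was lower, at 97.3 ± 9.59 CPM in aged and 146 ± 17.3 CPM in young mice without overlap (log2 fold change -0.59, adjusted p = 0.000133). Its known targets went in opposite directions. Asns, the asparagine synthetase of metabolism, was higher (43.7 ± 3.59 against 30.4 ± 4.65 CPM, 0.52, adjusted p = 0.000875), as was Slc7a5, the leucine importer (11.1 ± 2.59 against 4.97 ± 0.673 CPM, 1.17, adjusted p = 9.54e-05). Slc7a11, the cystine importer, was lower (81.9 ± 11.8 against 132 ± 10.6 CPM, -0.69, adjusted p = 7.16e-05). For Asns, Slc7a5 and Slc7a11 the ages did not overlap. Aldh18a1, of proline synthesis, had the highest change (1.80, adjusted p = 0.00417) from a low level of 0.575 CPM in young mice. Ppp1r15a, which reverses the stress signal on translation, had the lowest (-1.28, adjusted p = 0.00549). Eif4ebp1 and Ddit4 were also higher, and Cebpb, Mthfd2 and Slc38a2 lower. Chac1 (-0.0065) and Ddit3 (-0.32, adjusted p = 0.137), further targets of this response, were not called. Without young mice 5 and 6 the list had 4 higher and 5 lower.

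**Figure D5:**
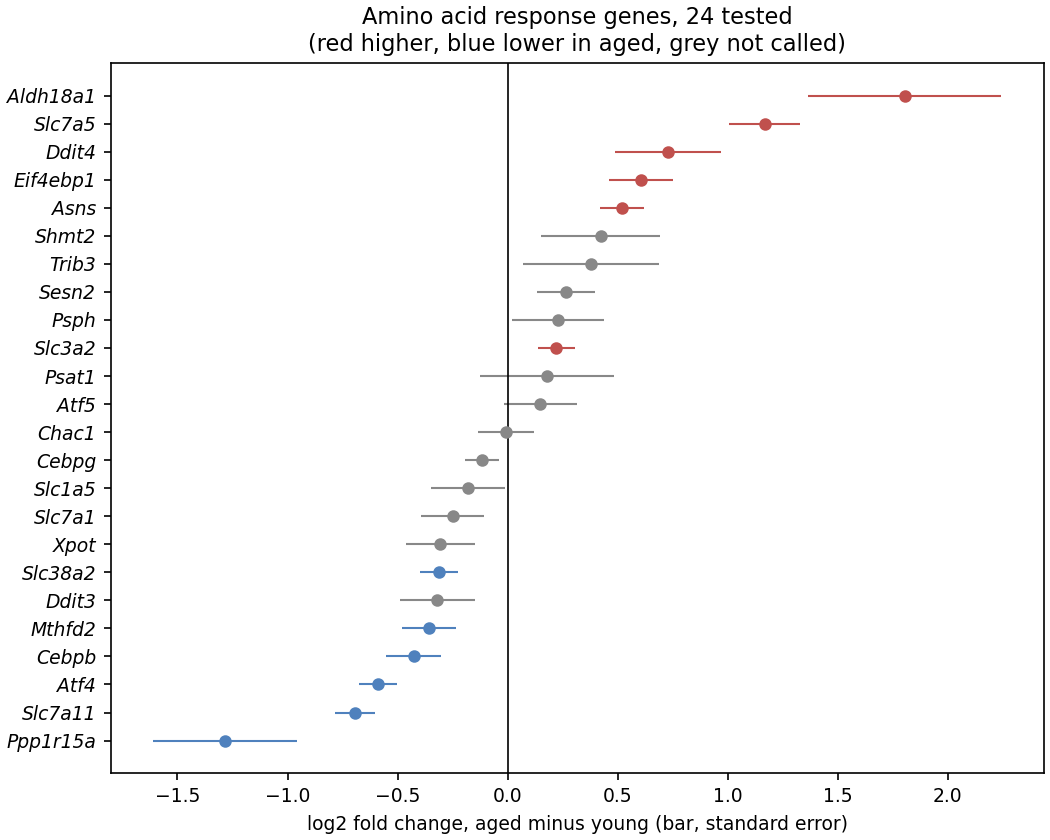
Log2 fold change (x axis, aged minus young, with its standard error) of the 24 tested genes of the amino acid response list, from 6 mice per age. Red genes (6) were called higher and blue genes (6) lower in aged mice, from -1.28 (Ppp1r15a) to 1.80 (Aldh18a1).

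Of 23 tested genes of amino acid sensing and mTORC1, the kinase complex that reads amino acid supply, 6 were called higher and 7 lower (4 and 4 without young mice 5 and 6), beside 22.4% and 23.0% of all genes (14.1% and 17.9%). The genes called higher were Lamtor1, Lamtor4 and Lamtor5 of the lysosomal anchor and the small GTPase genes Rraga, Rragc and Rheb, while Lamtor2 (0.26, adjusted p = 0.105), Lamtor3 (0.13, adjusted p = 0.187) and Rragd (-0.17, adjusted p = 0.417) were not called. Lamtor4 rose most (110 ± 5.26 against 73.6 ± 14.4 CPM, 0.58, adjusted p = 0.00086). The kinase gene Mtor was lower (49.3 ± 2.50 against 64.2 ± 3.07 CPM, -0.38, adjusted p = 0.000277), as were Rptor, Depdc5, Slc38a9, Sesn1, Gcn1l1 and Tsc1, the last at -0.66 (adjusted p = 0.00196). Eif2ak4, the sensor of uncharged tRNA, was at -0.16 (adjusted p = 0.541). Of 17 tested amino acid transporters, 2 were called higher and 5 lower (1 and 4 without those mice), beside the same shares of all genes, with Slc7a5 highest and Slc7a11 lowest. With the correction for gene length, 4 genes of the mTORC1 list and 1 transporter were called lower, beside 1611 of all 9742 genes.

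Genes that make and modify the tRNAs themselves were counted in the same way, against the same 22.4% higher and 23.0% lower of all genes (14.1% and 17.9% without young mice 5 and 6). Of 21 tested genes of RNA polymerase III, which transcribes tRNA genes, 3 were called higher and 5 lower (1 and 4 without young mice 5 and 6). Bdp1, a subunit of its initiation factor, fell most (33.1 ± 6.92 against 63.7 ± 10.7 CPM, -0.94, adjusted p = 0.000128), and Brf2 rose most (0.57, adjusted p = 0.0151). Maf1, the repressor of this polymerase, was higher (118 against 81.3 CPM, 0.54, adjusted p = 0.00179). Of 35 tested genes of cytosolic tRNA processing, 5 were called higher and 2 lower (3 and 1 without those mice). Trdmt1, a tRNA methyltransferase, rose most (17.8 ± 1.54 against 11.2 ± 2.26 CPM, 0.68, adjusted p = 0.000772), and Wdr4 had the lowest value (-0.89, adjusted p = 0.0570). The other 28 were not called.

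Of 27 tested genes of mitochondrial tRNA processing and translation, 3 were called higher and 3 lower (2 and 1 without young mice 5 and 6). This stands beside 22.4% and 23.0% of all genes (14.1% and 17.9% without those mice). The count of higher genes depended on the processing, with 7 under upper quartile scaling, 6 with the GC correction and 1 without TMM factors. Gfm2, which recycles mitochondrial ribosomes, had the smallest p (11.9 ± 1.73 against 16.8 ± 1.89 CPM, -0.50, adjusted p = 0.00252). Mtrf1l, a release factor, was at -0.57 (adjusted p = 0.0356), and Mtrf1 at 0.77 (adjusted p = 0.0580). Mitochondrial glutaminyl-tRNA is made from the product of Ears2 by an amidotransferase, of which Qrsl1 was at -0.01 (adjusted p = 0.968) and Gatc at 0.16 (adjusted p = 0.592). Of 11 tested proofreading and related genes, 1 was called higher (Prorsd1) and 1 lower, beside the same shares of all genes. The lower gene was Secisbp2 of selenocysteine insertion (-0.62, adjusted p = 0.00279), and Dtd2 had the highest value (0.47, adjusted p = 0.0807). Without young mice 5 and 6, 0 of this list were higher and 1 lower.

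Growth and interferon genes were set beside these because both are known to act on synthetase genes. The shares of all genes were 22.4% higher and 23.0% lower, and 14.1% and 17.9% without young mice 5 and 6. Of 18 cell cycle genes 3 were called lower (1 without those mice), with Mki67 at 99.0 ± 39.2 CPM in aged and 399 ± 188 CPM in young mice (-2.01, adjusted p = 0.000134) and Tk1 highest at 0.28 (adjusted p = 0.113). Of 7 tested genes of the Myc network, Mlx was called higher (0.29, adjusted p = 0.0103) and Mlxip lower (-0.57, adjusted p = 0.000604), with 0 higher and 2 lower without young mice 5 and 6. Of 14 tested interferon gamma response genes, 6 were called higher, also 6 without young mice 5 and 6, among them Gbp2 (27.2 ± 8.86 against 12.8 ± 3.75 CPM, 1.11, adjusted p = 0.00155) and Psmb9 (0.69, adjusted p = 0.000438), while Gbp7 had the lowest value (-0.29, adjusted p = 0.0986). Wars, the synthetase gene best known to respond to interferon gamma, was at 17.4 to 22.2 CPM in aged and 15.2 to 20.8 CPM in young mice, and was not called (0.10, 95% interval -0.12 to 0.31, adjusted p = 0.431).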

How the data were processed

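The authors sequenced stranded paired-end libraries and deposited whole-number counts of fragments per gene, made with featureCounts 2.0.0 on the exons of a UCSC annotation of mm10. Per the file headers, the 2 ends had to align to 1 chromosome on the gene's strand, and the mapping quality had to reach 60, which lowers counts of genes with near-identical copies. The aligner is not given in the sources used here, and the submitters' processing notes name bcl2fastq. No normalization had been applied to the deposited counts.

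Counts were fitted with edgeR 4.0.16 in R 4.3.3 (filterByExpr, TMM factors, quasi-likelihood test, Benjamini-Hochberg adjustment over 9742 genes, threshold 0.05). The study used DESeq2, kept here as an alternative. CPM are counts relative to the TMM-scaled library total, and CPM per kilobase divide them by the authors' exon length. The edgeR script was tested on simulated data. Pairs of genes were compared as log2 CPM with a prior count of 2. Alternatives were DESeq2 1.42.0, limma-voom 3.58.1, other scalings and filters, corrections for gene length and GC content, thinning, a replicate block and leaving out mice. GC content came from GENCODE transcripts for 94.4% of genes tested, as no genome was given. Leaving out young mice 5 and 6, the GC source and the overlap of the ages on plain library totals were chosen after seeing the data.

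Members, the 10 pathway lists and the 9 marker lists were chosen with earlier results of these data known. Every member is named, and per list the genes with the largest rise, largest fall and smallest p, plus further called genes chosen after their values were seen. Mice were assigned to ages by the labels. File headers number all young libraries before all aged ones. What these numbers record is not given, and any order they stand for cannot be told apart from age. Floors of 3 counts cover counting error only. Tarsl2 is not a member and no protein sequences were used here.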

Additional observations from a re-analysis of the deposited data

Results flagged for a closer look

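In a screen of 78 groups of 6 mice (39 genes in 2 ages) for a mouse far from the others, 4 were found, and chance flags about 1 in 20 groups, here 3.9. Hars was at 4.99 CPM in aged mouse 5, with the nearest aged mouse at 7.10 CPM. Mars was at 20.96 CPM in aged mouse 4, with the nearest at 24.3 CPM. Iars2 was at 24.0 CPM in aged mouse 1, above 22.0 CPM in the next. Ears2 was at 0.347 CPM in young mouse 9, where the other 5 young mice had no count.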

How the results depend on the processing

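Of the 14 members called, Cars, Qars and Lars2 kept their call under all 24 alternatives. The counts of members that moved by over 1.5 times were these. Library totals without TMM factors, which put the median of all genes at -0.08, gave 3 cytosolic genes higher, and 1 mitochondrial gene higher and 2 lower. The length correction gave 2 mitochondrial genes lower, and thinning all libraries to the smallest put the mitochondrial median at -0.25. Without young mice 5 and 6, 2 cytosolic genes were higher and 1 lower, 1 mitochondrial gene was higher, and 0 of the 12 exact permutation tests of pairs passed, in a design where 1 pair alone cannot pass (smallest adjusted p 0.0571) and the 3 differences were -0.65, -1.01 and 1.03. Leaving out each mouse in turn gave 5 to 8 cytosolic genes higher and 2 to 3 lower, and 3 to 4 pairs. Eprs lost its call without 8 of the 12 mice, 1 at a time (aged 2, 4, 5 or 6, or young 2, 5, 6 or 9), Sars without aged 1 or young 6, and Kars without young 6. Calls were lost for Aars, Kars, Nars, Sars and Iars2 without TMM factors, for Eprs with upper quartile scaling, the GC correction, the length correction and thinning, for Kars and Aimp2 with the length correction, and for Kars and Sars with thinning. Calls were gained for Tars (upper quartile scaling, minimum of 10 counts, GC correction), Rars and Aimp1 (GC correction), Fars2 (without TMM factors, length correction) and Yars (8 mice of shared numbers without a block).

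Pathway list counts also moved. With the length correction mTORC1 genes lower went from 7 to 4, transporters lower from 5 to 1, cell cycle genes lower from 3 to 1 and cytosolic tRNA processing genes higher from 5 to 3 (also 3 without TMM factors and 2 with the block). Cytosolic tRNA processing genes lower went from 2 to 0 with upper quartile scaling, no filter or thinning, and to 1 with the length or GC correction or in the 8 mice. Proofreading genes higher went from 1 to 0 without TMM factors, with the length correction and with thinning. Transporters higher went from 2 to 1 without TMM factors and with the block, and mitochondrial tRNA processing genes lower from 3 to 1 in the 8 mice. Genes called lower went from 1 to 2 for proofreading (limma-voom, no TMM factors) and Myc (no TMM factors, GC correction, thinning) and from 0 to 1 for interferon (no TMM factors, thinning), and cell cycle genes higher from 0 to 1 (thinning). Leaving out 1 mouse gave 1 to 3 transporters higher, 0 to 2 cytosolic tRNA processing genes lower, 2 to 5 mitochondrial tRNA processing genes higher and 1 to 3 lower, 0 to 1 proofreading gene higher and 1 to 2 lower, 1 to 3 cell cycle genes lower and 0 to 1 higher, 1 to 2 Myc network genes lower and 0 to 1 interferon gene lower.

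For the 8 mice of shared numbers, a replicate block gave 3 cytosolic genes higher and 1 lower, and 1 mitochondrial gene higher and 0 lower. The same 8 mice without the block gave 1 mitochondrial gene higher. Mice of the same number did not deviate together (correlations -0.25 to -0.07), and the comparison reported does not pair them. Correlations over 4 shared numbers cannot exclude a pairing.

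Some genes that were not called changed sign, among them Aimp1 (0.30 in the comparison reported), Aars2 (-0.20) and Wars2 (-0.14). Farsa went to -0.054 without TMM factors, -0.11 with the length correction, -0.040 with the replicate block and -0.038 in the same 8 mice without it. Farsb went to 0.0044 with DESeq2, 0.012 with limma-voom, 0.034 with upper quartile scaling, 0.0070 with a minimum of 10 counts and 0.038 with the GC correction. Mars went to 0.027 with upper quartile scaling, 0.0025 with the length correction and 0.0015 with the replicate block. Rars2 went to -0.047 without TMM factors, -0.10 with the length correction and -0.0080 without young mice 5 and 6. Sars2 went to -0.036 with limma-voom, -0.033 without TMM factors, -0.060 with the length correction, -0.010 with the GC correction, -0.068 with the replicate block and -0.043 without it. Wars2 went to 0.0094 with the length correction and 0.21 without young mice 5 and 6, Aars2 to 0.031 without these, and Aimp1 to -0.013 with the length correction. Leaving out 1 mouse gave -0.034 to 0.11 for Farsa, -0.10 to 0.066 for Farsb, -0.027 to 0.033 for Mars, -0.04 to 0.11 for Rars2, -0.085 to 0.20 for Sars2 and -0.31 to 0.084 for Wars2. The cause of these changes was not tested. GC content over genomic exons was not run, since no genome was given. Depth limits Ears2, Nars2 and Pars2, of which no difference was detectable here.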
